A study of Mus musculus with 32 samples.

Results

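NADPH oxidases and glutathione peroxidases are followed here through 8 genes of the 53465 in a count table of mouse B lineage cells. They are the oxidase genes Nox1, Cybb, Cyba, Ncf1 and Ncf4 and the peroxidase genes Gpx1, Gpx3 and Gpx4, taken by gene name. Nox1 and Gpx3 were selected on their measured expression, which was higher in plasma cells with activated PIK3CD. The values of all 8 genes in that contrast, and those of Nox1 and Gpx3 in any contrast with plasma cells, are therefore descriptions and carry no test.

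Libraries were made from splenic B lineage cells of C57BL/6 mice. The mice were 12 weeks old and had received the T cell dependent antigen NP-CGG with alum by the intraperitoneal route 14 days earlier. The study asked what activated PIK3CD signalling does to the transcriptomes of 4 populations, naive B cells, dark zone and light zone germinal centre B cells, and plasma cells. Mice of both genotypes carried AID-cre, a recombinase driven from the gene of activation-induced deaminase, which is switched on in activated and germinal centre B cells. The genotypes were AID-cre WT, called WT here, and AID-cre aPIK3CD, called aPIK3CD. Each of the 8 groups had 4 libraries made with a SMART-Seq low-input kit from 500 sorted cells. The sort markers, and whether the libraries of a group came from separate mice, are not given in the sources used here, so p-values measure the spread between these libraries. Titles decided the grouping, although the genotype field says WT for aPIK3CD replicate 1 of every population, 4 libraries in all.

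NADPH oxidases move electrons from NADPH across a membrane onto oxygen and so make superoxide. In the phagocyte oxidase, which B cells also carry, the membrane pair of Cybb (the catalytic subunit, also called Nox2) and Cyba is switched on when cytosolic subunits, Ncf1 and Ncf4 among them, and a Rac GTPase join it. Nox1 is a catalytic subunit related to Cybb that is best known from colon epithelium and also pairs with Cyba. Glutathione peroxidases remove the hydrogen peroxide and lipid peroxides that follow, using glutathione. Gpx1 works in the cytosol and mitochondria, Gpx3 is secreted, and Gpx4 reduces lipid peroxides within membranes.

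The 3 peroxidase members read the stop codon TGA as selenocysteine, the catalytic residue. This codon sets them apart from the 5 oxidase members, whose coding sequences held 0 internal stop codons. The coding sequence around it is printed 5′ to 3′ from the GENCODE M21 transcripts Gpx1-201, Gpx3-201 and Gpx4-201, with the TGA in capitals and 21 bases on each side. Codon numbers hold for these transcripts only.
Gpx1, codon 47 of 201: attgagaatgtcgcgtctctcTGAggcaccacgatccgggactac
Gpx3, codon 73 of 226: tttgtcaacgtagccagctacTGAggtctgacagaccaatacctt
Gpx4, codon 129 of 253: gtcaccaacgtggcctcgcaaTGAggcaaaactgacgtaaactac
Over these 45 bases Gpx1 and Gpx3 were identical at 46.7% of positions, Gpx1 and Gpx4 at 55.6%, and Gpx3 and Gpx4 at 53.3%.

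The promoter of Ncf1 is shown because Ncf1 fell most among the members in plasma cells, and because it was the only one of 7 members with a promoter in the RefSeq table (build GRCm38.p6) that matched any of 6 motifs. Ncf4 was not in that table. The 250 bases before the start site, chr5:134229626-134229875 on the minus strand, read 5′ to 3′ with the matches in capitals.
Ncf1: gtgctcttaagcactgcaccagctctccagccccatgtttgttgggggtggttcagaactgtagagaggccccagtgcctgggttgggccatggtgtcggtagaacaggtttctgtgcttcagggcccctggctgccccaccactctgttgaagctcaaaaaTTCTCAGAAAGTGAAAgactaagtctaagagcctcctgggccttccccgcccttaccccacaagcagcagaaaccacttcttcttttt
The capitals join 2 overlapping matches. A STAT motif, TTCNNNGAA, begins 88 bases before the start and is found in 8.3% of 32851 promoters. Each promoter was searched over 300 bases, 250 before the start and 50 after it. A motif shared by Prdm1, the plasma cell repressor, and interferon regulatory factors, AAAGTGAAA, begins 81 bases before it and is found in 0.594% of promoters. The other motifs searched on both strands were FOXO, GTAAACA (3.65% of promoters), an antioxidant response element, TGACNNNGC (12.4%), PU.1, AGAGGAAG (4.55%), and XBP1 or ATF6, CCACGTCA (0.676%). A match describes the letters and does not show binding, and the motif list was chosen after these promoters had been seen.

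Levels are in CPM, counts per 1e6 counts of the library after TMM scaling. Totals ran from 1965329 to 2820830 counts in naive B cells, from 902088 to 1835558 in the light zone, from 1154809 to 1941224 in the dark zone and from 473149 to 788999 in plasma cells. Dark zone WT replicate 3 had only 25797. Marker genes followed the labels in the summed CPM of 7 plasma cell genes (12640 to 17048.6 in plasma cells, at most 3436.5 elsewhere), of 6 naive B cell genes and of 6 germinal centre genes. The 5 light zone genes were not specific, since they reached 1486.9 to 1681.4 CPM in plasma cells as well. The 15 phagocyte markers, which bear on Cybb and its partners, summed to 78.0 to 464 CPM in WT and 245 to 701 in aPIK3CD plasma cells, to 89.1 to 481 in the light zone of both genotypes and to at most 119 in naive and dark zone cells. Among the neutrophil genes of this list Mpo, Elane, S100a8 and S100a9 had 0 counts in plasma cells of both genotypes. Ly6g had counts in both genotypes, and Ngp had counts in WT but not in aPIK3CD. Of the 15 markers 11 had counts in WT and 10 in aPIK3CD plasma cells. Lyz2 measured 165 ± 153 CPM in WT and 262 ± 246 in aPIK3CD plasma cells (SD, n = 4). The 5 T cell markers, all with counts, summed to 111 to 350 CPM in WT and 131 to 200 in aPIK3CD plasma cells. They summed to 25.0 to 164 CPM in WT and 59.2 to 118 in aPIK3CD light zone cells, and to at most 62.4 in naive B cells. Dark zone sums were at most 39.1 CPM in WT without replicate 3, which reached 102, and at most 25.7 in aPIK3CD. The 8 erythroid and platelet markers summed to 2.27 to 32.4 CPM in WT and 10.9 to 209 in aPIK3CD plasma cells, and to at most 31.7 in naive B cells. The part of these cell types in the members' differences between plasma cells and other populations was not tested.

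Nox1 (ENSMUSG00000031257) was close to absent except in aPIK3CD plasma cells. The 4 aPIK3CD plasma cell libraries held 18, 15, 17 and 16 Nox1 counts, or 28.0, 28.6, 31.8 and 27.2 CPM. The 4 WT plasma cell libraries held 1, 0, 5 and 0 counts, or 2.27, 0.0, 8.52 and 0.0 CPM. The genotypes did not overlap, and the lowest aPIK3CD library lay above WT replicate 3, the highest of WT. The means were 28.9 ± 2.01 and 2.70 ± 4.03 CPM (SD, n = 4), a log2 difference of 3.07 (SE 0.59). It was 4.78 without WT replicate 3, and 1.68 with aPIK3CD replicate 1 moved to WT, as its genotype field has it.

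In the other populations Nox1 had counts in 5 of 24 libraries, 13 counts in all. Of these, 8 were in naive WT replicate 3, and no other library outside plasma cells had more than 2. The 4 naive aPIK3CD libraries had 0 counts, which allows up to 0.276 CPM at 3 counts over the group. The measured mean of aPIK3CD plasma cells was at least 105-fold higher. Such bounds cover only the counting error of the group with 0 counts and take the plasma cell mean as measured. The counts are of reads, not of tagged molecules, so other error is not covered. Noxo1 and Noxa1, which encode the organizer and activator of the Nox1 oxidase, had 1 and 0 counts over the 4 aPIK3CD plasma cell libraries. Of the 3307 exonic bases of Nox1, 12.1% overlap Cstf2 on the opposite strand, and whether the counting used strand is not stated. Cstf2 measured 42.2 ± 8.34 CPM in WT and 63.0 ± 21.4 in aPIK3CD plasma cells (SD, n = 4), and 83.1 to 154 CPM in naive B cells of both genotypes. The part of Cstf2 reads in the Nox1 counts was not tested.

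**Figure D1:**
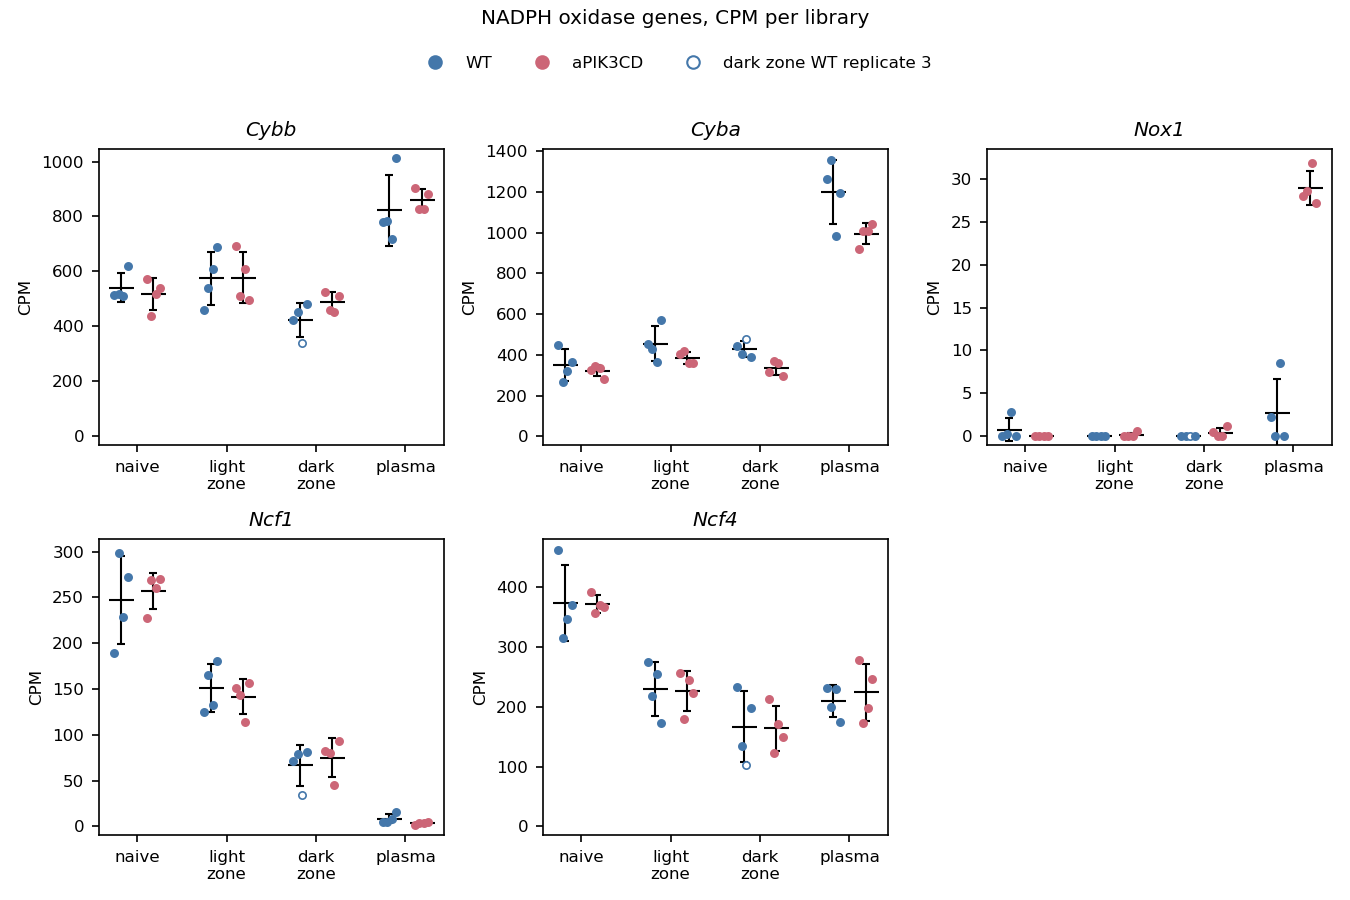
CPM of the 5 oxidase members in each library, by population and genotype, with the mean and SD (n = 4) in black and dark zone WT replicate 3 as an open circle. Nox1 stands at 27.2 to 31.8 CPM in aPIK3CD plasma cells and at 8.52 CPM or less in every other library, and Ncf1 steps down from naive B cells over the light and dark zones to plasma cells.

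Cybb (ENSMUSG00000015340) was expressed in every population. In WT it measured 541 ± 53.2 CPM in naive B cells, 425 ± 61.2 in the dark zone, 575 ± 97.3 in the light zone and 823 ± 129 in plasma cells (SD, n = 4). In aPIK3CD the same populations measured 517 ± 57.7, 488 ± 36.1, 577 ± 92.1 and 860 ± 39.5 CPM. The 8 plasma cell libraries (718 to 1011.9 CPM) lay above all naive and germinal centre libraries of their genotype. Cybb rose in plasma cells against naive B cells by 0.65 (SE 0.14, edgeR adjusted p = 0.00158) in WT and 0.75 (SE 0.09, edgeR adjusted p = 2.67e-05) in aPIK3CD on the log2 scale. Cybb also rose against the light zone, by 0.56 (SE 0.16, edgeR adjusted p = 0.00716) in WT and 0.58 (SE 0.11, edgeR adjusted p = 0.000382) in aPIK3CD. The sum of phagocyte markers was higher in plasma cells than in naive B cells, and light zone sums overlapped those of plasma cells. The part of these markers in the Cybb levels was not tested. Between dark and light zone Cybb did not pass the test in either genotype (log2 difference 0.37, SE 0.15, and 0.24, SE 0.11).

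Cyba (ENSMUSG00000006519), the partner that stabilizes Cybb and Nox1, had its highest CPM in plasma cells. The WT plasma cell libraries measured 1262.2, 1354.0, 984 and 1193.6 CPM, and those of aPIK3CD 921, 1008.4, 1009.7 and 1042.7. Naive libraries lay between 265 and 448 CPM and germinal centre libraries between 296 and 571, so plasma cells stood apart in both genotypes. The rise against naive B cells was 1.82 (SE 0.17, edgeR adjusted p = 4.88e-07) in WT and 1.64 (SE 0.09, edgeR adjusted p = 2.54e-08) in aPIK3CD. Levels per kilobase of exon in WT were 1153.4 CPM for Cyba and 142 for Cybb in plasma cells, and 337 and 93.2 in naive B cells. In plasma cells the mean of Cyba was 995 ± 52.2 CPM in aPIK3CD and 1198.4 ± 157 in WT (SD, n = 4), and the genotypes overlapped.

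Ncf1 (ENSMUSG00000015950) encodes the organizer that carries the cytosolic subunits to the membrane pair, and it varied most between populations among the members tested. The naive libraries measured 189, 299, 229 and 272 CPM in WT and 228, 269, 260 and 270 in aPIK3CD. Light zone libraries measured 125, 165, 133 and 181 CPM in WT and 151, 144, 114 and 157 in aPIK3CD. Dark zone libraries measured 71.7, 78.9, 34.0 and 81.7 CPM in WT, the third being the shallow library with 1 Ncf1 count, and 82.1, 80.1, 45.1 and 93.5 in aPIK3CD. No library of 1 step overlapped the next within a genotype.

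In plasma cells Ncf1 nearly disappeared, with 2, 2, 5 and 7 counts in WT and 1, 2, 2 and 3 in aPIK3CD. These are 4.53, 5.20, 8.52 and 16.1 CPM and 1.56, 3.81, 3.74 and 5.10 CPM. Against naive B cells Ncf1 fell by 4.78 (SE 0.32, edgeR adjusted p = 1.69e-08) on the log2 scale in WT, 27.5-fold, and fell by 6.15 (SE 0.25, edgeR adjusted p = 2.01e-09) in aPIK3CD, 71.2-fold. Against the dark zone, its next lowest population, it fell by 3.09 (SE 0.39, edgeR adjusted p = 2.36e-06) in WT and fell by 4.39 (SE 0.41, edgeR adjusted p = 6.23e-07) in aPIK3CD. Whether the fall differed between genotypes was not tested, since it uses the plasma cell genotype contrast.

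Within the germinal centre Ncf1 was higher in the light zone. The rise from dark to light zone was 0.99 (SE 0.19, edgeR adjusted p = 0.00631) in WT and 0.91 (SE 0.21, edgeR adjusted p = 0.0138) in aPIK3CD, and all light zone libraries lay above all dark zone libraries of their genotype. In aPIK3CD the call was lost without light zone replicate 4 (0.85, edgeR adjusted p = 0.0552) and with the genotype field in place of the title (0.92, edgeR adjusted p = 0.0649). In WT it was 0.96 (edgeR adjusted p = 0.00994) without dark zone replicate 3. Light zone cells were below naive B cells by a log2 difference of -0.71 (SE 0.18, edgeR adjusted p = 0.00607) in WT and -0.85 (SE 0.12, edgeR adjusted p = 0.000176) in aPIK3CD. Of the exonic bases of Ncf1, 11.1% overlap Gtf2ird2 on the opposite strand, which measured 11.6 ± 5.32 CPM in WT and 20.9 ± 14.8 in aPIK3CD plasma cells (SD, n = 4).

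Ncf4 (ENSMUSG00000071715), the subunit that binds phosphatidylinositol 3-phosphate on phagosome membranes, fell with Ncf1 in the germinal centre. It measured 373 ± 63.4 CPM in WT and 371 ± 14.9 in aPIK3CD naive B cells, and 166 ± 58.9 and 164 ± 37.5 in the dark zone (SD, n = 4). Light zone means were 229 ± 45.4 and 226 ± 33.7 CPM, and plasma cell means 209 ± 27.0 and 224 ± 47.9. The dark zone fall against naive B cells was -0.98 (SE 0.20, edgeR adjusted p = 0.00088) in WT and -1.16 (SE 0.15, edgeR adjusted p = 4.77e-05) in aPIK3CD. In plasma cells Ncf4 fell against naive B cells by a log2 difference of -0.79 in WT (SE 0.16, edgeR adjusted p = 0.000922) and -0.71 in aPIK3CD (SE 0.14, edgeR adjusted p = 0.000973), and it did not pass the test against either germinal centre zone. Per kilobase of exon the 2 cytosolic members stood at 67.5 (Ncf1) and 185 CPM (Ncf4) in WT naive B cells and at 2.34 and 103 in WT plasma cells.

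The oxidase genes outside the members were read from a list of 15, of which 7 passed the filter on low counts in each comparison described here. In plasma cells against naive B cells 2 of the 7 rose and 3 fell in each genotype, where 49.6% of all genes passed in WT and 52.8% in aPIK3CD. The median log2 difference was -0.11 in WT, against -0.088 over all genes, and 0.10 in aPIK3CD, against -0.077. Hvcn1, the proton channel that balances the charge moved by the oxidase, fell from 217 ± 8.81 to 83.6 ± 16.1 CPM in WT (SD, n = 4; log2 difference -1.34, SE 0.18, edgeR adjusted p = 1.88e-05). Cybc1, a chaperone of the Cybb and Cyba pair, fell from 386 ± 39.6 to 173 ± 23.2 CPM (-1.12, SE 0.15, edgeR adjusted p = 2.82e-05). Rap1a, a small GTPase found with the oxidase, rose from 97.0 ± 14.3 to 407 ± 60.3 CPM (2.12, SE 0.17, edgeR adjusted p = 1.23e-07). In aPIK3CD these 3 genes passed too, at -1.68, -0.96 and 2.16 for Hvcn1, Cybc1 and Rap1a. In a single fit with log2 total count as a covariate, chosen after seeing the data, Hvcn1 still passed in both genotypes (-1.66 and -1.95), Cybc1 passed in neither (-0.09 and -0.04, edgeR adjusted p = 0.913 and 0.96), and Rap1a passed in aPIK3CD (1.10) but not in WT (0.88, edgeR adjusted p = 0.151). From naive B cells to the dark zone in WT 0 of the 7 rose and 3 fell (41.4% of all genes passed), Hvcn1 (-0.96) and Poldip2 (-0.97) among them. With the covariate Hvcn1 was -1.12 and passed, and Poldip2 was -0.47 and did not (edgeR adjusted p = 0.444). Nox3, Duox1 and Duoxa2 had 0 counts in the 16 WT libraries.

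Gpx1 (ENSMUSG00000063856) was the most abundant peroxidase per length, at 274 CPM per kilobase in WT naive B cells against 24.2 for Gpx4. It measured 394 ± 84.6 CPM in naive WT, 536 ± 87.5 in light zone WT and 713 ± 68.3 in plasma cell WT libraries (SD, n = 4). In dark zone WT the mean was 641 ± 165 CPM (SD, n = 4), and 559 ± 36.2 (SD, n = 3) without replicate 3. In aPIK3CD the means of naive, dark zone, light zone and plasma cells were 384 ± 28.0, 489 ± 40.0, 525 ± 31.3 and 584 ± 20.1 CPM (SD, n = 4). Plasma cells exceeded naive B cells by 0.90 (SE 0.16, edgeR adjusted p = 0.000255) in WT and 0.62 (SE 0.09, edgeR adjusted p = 9.44e-05) in aPIK3CD. In plasma cells, where the contrast chose members, the aPIK3CD libraries (566 to 603 CPM) all lay below those of WT (656 to 808).

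Gpx4 (ENSMUSG00000075706) was the member other than Gpx3 and Nox1 with the highest ratio of plasma cells to naive B cells. The plasma cell libraries measured 150, 161, 152 and 161 CPM in WT and 138, 145, 135 and 150 in aPIK3CD. Naive libraries measured 53.1, 33.3, 34.9 and 45.8 CPM and 44.3, 43.1, 40.8 and 37.8 CPM. The groups did not overlap, and Gpx4 rose by 1.95 (SE 0.20, edgeR adjusted p = 1.65e-06) in WT and 1.79 (SE 0.15, edgeR adjusted p = 1.31e-06) in aPIK3CD. In the dark and light zones it lay between 43.7 and 62.9 CPM in all libraries but the shallow one (102 CPM from 3 counts), and against naive B cells it did not pass the test in either zone or genotype. The pseudogene Gpx4-ps2, which can share reads with Gpx4, measured 5.51 ± 1.55 CPM in WT plasma cells (SD, n = 4).

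Gpx3 (ENSMUSG00000018339) had counts mainly in the plasma cell libraries, on whose values it was selected. The WT plasma cell libraries held 4, 8, 24 and 19 counts, or 9.06, 20.8, 40.9 and 43.7 CPM, and those of aPIK3CD 65, 29, 50 and 60 counts, or 101, 55.3, 93.5 and 102 CPM. The genotypes did not overlap, aPIK3CD replicate 2 being the lowest of its group and WT replicate 4 the highest of WT. The means were 88.0 ± 22.1 CPM in aPIK3CD and 28.6 ± 16.6 in WT (SD, n = 4), a log2 difference of 1.55 (SE 0.37). Leaving out each library gave 1.26 to 1.81, and counting aPIK3CD replicate 1 as WT gave 0.88. The 15 phagocyte markers summed to 78.0 to 464 CPM in WT and 245 to 701 in aPIK3CD plasma cells, ranges that overlap. Among them Cd68 measured 66.8 ± 32.2 CPM in WT and 156 ± 47.5 in aPIK3CD plasma cells (SD, n = 4). Ngp had counts in WT only, and Mpo, Elane, S100a8 and S100a9 had 0 in both. The part of these markers in the levels of Gpx3 and Nox1 was not tested.

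Elsewhere Gpx3 had 15 counts in 5 of 24 libraries, 7 of them in naive aPIK3CD replicate 2 and 4 in dark zone WT replicate 4. The 4 naive WT libraries had 0 counts, which allows up to 0.285 CPM over the group. The measured mean of WT plasma cells, 28.6 CPM from libraries at 9.06 to 43.7, was at least 100-fold higher. The 4 dark zone aPIK3CD libraries also had 0 counts, and the measured mean of aPIK3CD plasma cells was at least 187-fold higher. In a bulk sample, fewer cells of a type and less RNA per cell cannot be told apart. The other peroxidase genes were sparse in WT, with Gpx2, Gpx5 and Gpx6 at 0 counts, and Gpx7, an endoplasmic reticulum peroxidase, at 14.2 ± 3.93 CPM in plasma cells and 6.07 ± 4.04 in naive B cells (SD, n = 4; edgeR adjusted p = 0.0988).

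**Figure D2:**
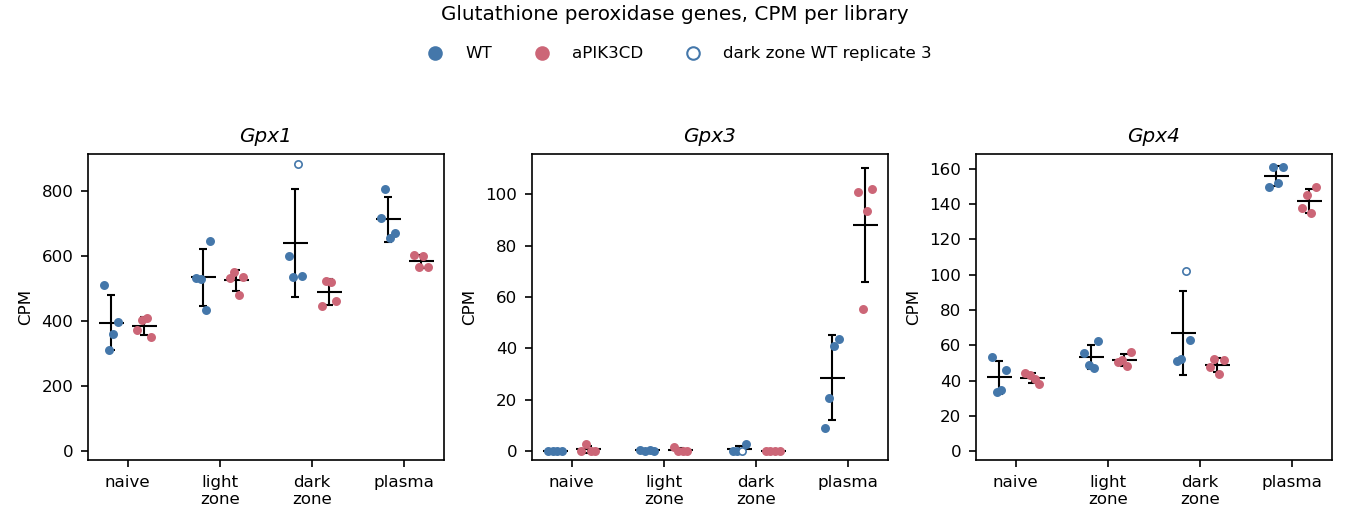
CPM of the 3 peroxidase members in each library, by population and genotype, with the mean and SD (n = 4) in black and dark zone WT replicate 3 as an open circle. Gpx3 lies between 9.06 and 102 CPM in plasma cells and at 2.72 CPM or less elsewhere, and Gpx4 lies at 135 CPM or more in plasma cells and at 62.9 or less in other libraries except the open circle at 102.

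Between populations the members open to test were counted against the share of all genes that passed. In plasma cells against naive B cells 6 of 6 members passed in WT (49.6% of all genes tested) and 6 of 6 in aPIK3CD (52.8%), with Cybb, Cyba, Gpx1 and Gpx4 up and Ncf1 and Ncf4 down in both. Against the dark zone 4 of 6 passed in WT (55.1%) and 4 of 6 in aPIK3CD (61.6%), Cybb, Cyba and Gpx4 up and Ncf1 down. Against the light zone 5 of 6 passed in WT (56.4%), Gpx1 included, and 4 of 6 in aPIK3CD (61.2%). With 6 genes, counts of 4 and 5 are not far from these shares.

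Of the 8 members, 6 passed the filter on low counts in comparisons without plasma cells, all but Nox1 and Gpx3. From naive B cells to the dark zone 3 passed in WT (41.4% of all genes tested) and 3 in aPIK3CD (43.6%), Gpx1 up and Ncf1 and Ncf4 down. From naive B cells to the light zone 3 passed in WT (40.0%) and 4 in aPIK3CD (42.6%), the same 3 genes and, in aPIK3CD, Cyba (0.26, SE 0.10, edgeR adjusted p = 0.0415). Without single libraries the light zone calls of Gpx1 in WT and Cyba in aPIK3CD were each lost in 6 of 8 refits. Between light and dark zone 1 of 6 passed in WT (2.55%) and 1 of 6 in aPIK3CD (6.04%), Ncf1 both times.

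**Figure D3:**
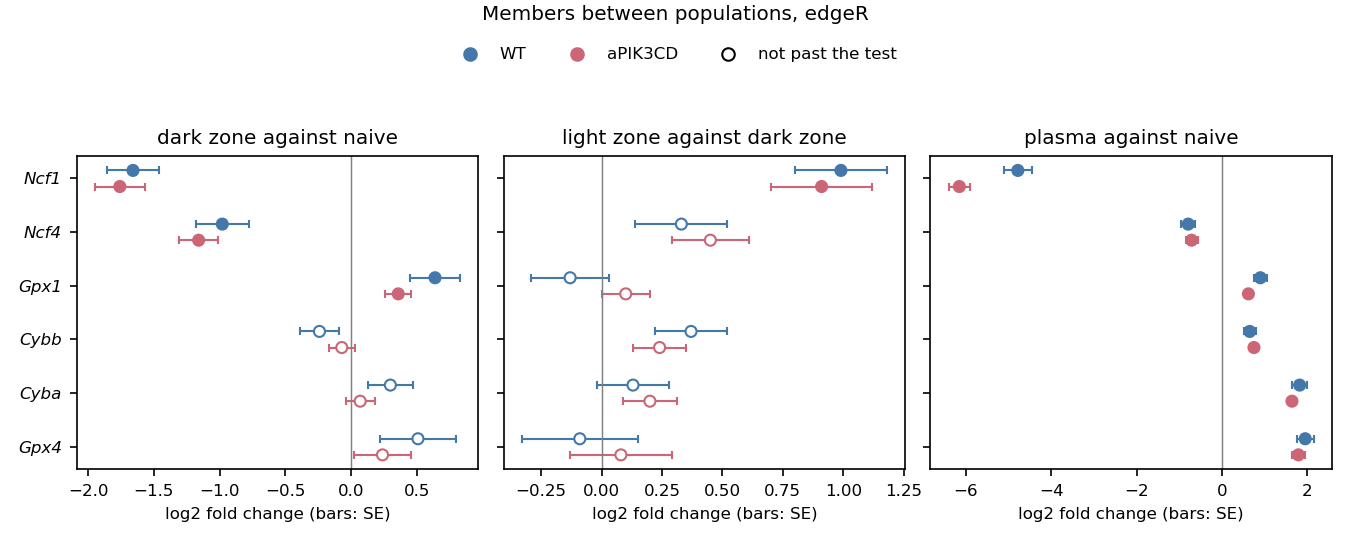
Log2 fold changes with SE of the 6 members open to test, for dark zone against naive, light zone against dark zone and plasma against naive, in WT and aPIK3CD (filled circles passed the test). Ncf1 is called in all 3 comparisons, and its values in plasma cells (-4.78 and -6.15) lie far below those of Ncf4 (-0.79 and -0.71).

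Library size bears on these comparisons, because totals in naive B cells and plasma cells do not overlap. Within groups, over 31 libraries, the counts of a gene rose by a median of 1.09 on the log2 scale for each doubling of the total (6968 genes with a mean count of at least 50, 10th to 90th percentile 0.514 to 1.74). Ncf1 (0.956) and Cybb (0.94) lay near that median and Ncf4 above it (1.59). Gpx4 (0.678), Gpx1 (0.495) and Cyba (0.361) lay below. In naive B cells Cyba counts stayed between 825 and 928 and Gpx1 counts between 981 and 1075 while totals varied 1.44-fold, so in CPM a deeper library shows less of these genes.

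In a single fit with log2 total as a covariate, added after seeing this, the fall of Ncf1 in plasma cells against naive B cells was -4.88 in WT (edgeR adjusted p = 1.29e-06) and -6.22 in aPIK3CD (edgeR adjusted p = 6.49e-09). Gpx4 was 1.18 (edgeR adjusted p = 0.0564) and 1.13 (edgeR adjusted p = 0.027). Cyba shrank to 0.38 and 0.41 (edgeR adjusted p = 0.324 and 0.175) and Cybb to 0.41 and 0.56 (edgeR adjusted p = 0.494 and 0.192). Gpx1 and Ncf4 changed sign, to -0.27 and -0.38 for Gpx1 and to 0.24 and 0.21 for Ncf4, and did not pass. Against the dark zone, whose totals are nearer, Cyba (0.67 and 0.84), Cybb (0.74 and 0.71) and Gpx4 (1.03 and 1.16) still passed in both genotypes. Light zone totals overlap those of the dark zone. Against the light zone fewer members passed in WT with the covariate than without it. There Gpx1 changed sign, to -0.28 in WT and -0.41 in aPIK3CD.

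**Figure D4:**
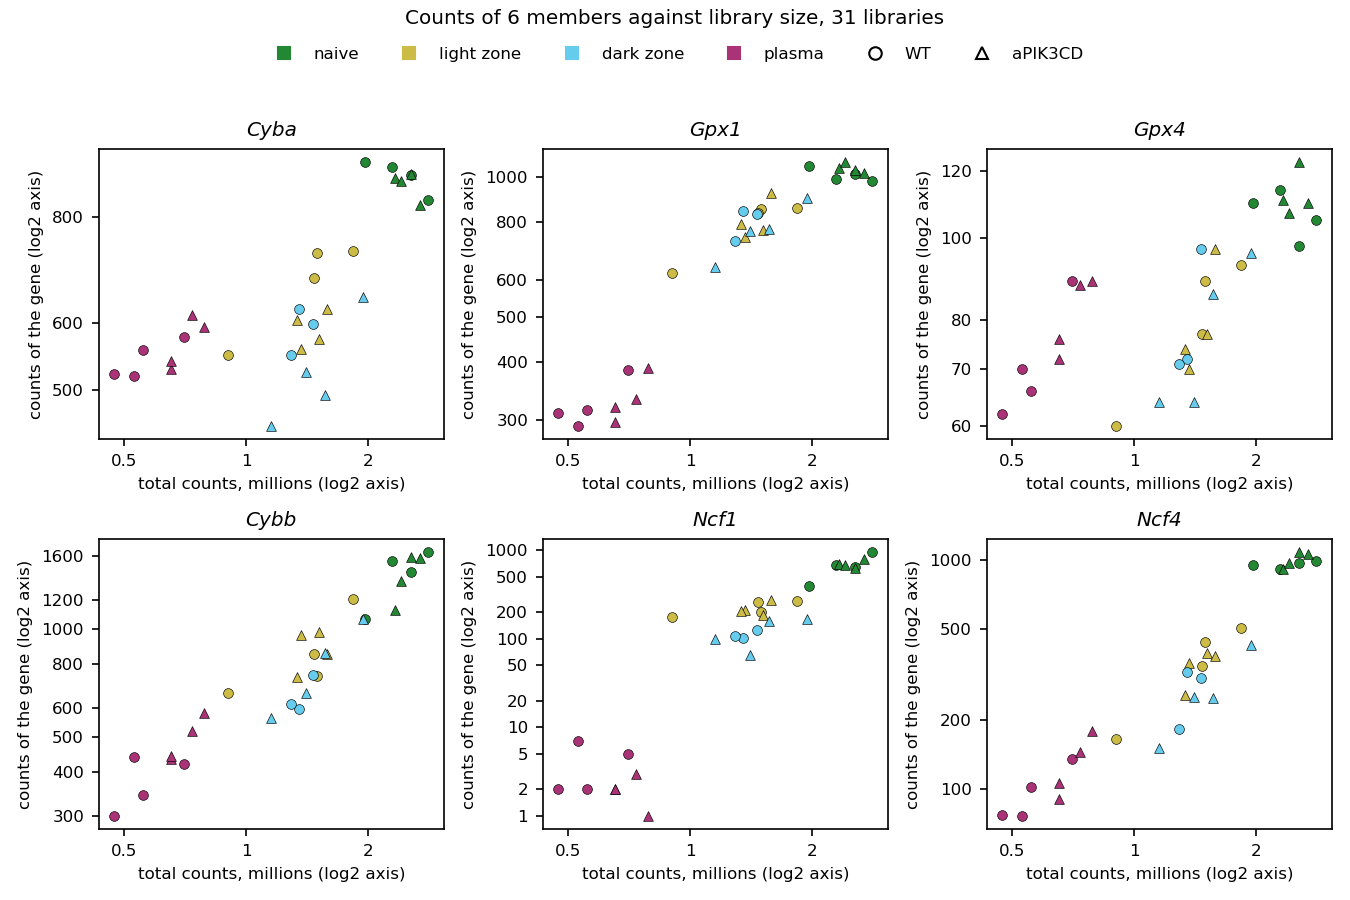
Counts of 6 members against the total counts of the library, both on log2 axes, for 31 libraries (dark zone WT replicate 3 left out), coloured by population and shaped by genotype. Cyba and Gpx1 counts are flat across naive libraries, at 825 to 928 and 981 to 1075, and Ncf1 drops to 1 to 7 counts in plasma cells, away from the trend of the other libraries.

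Genotype differences in the populations that did not choose the members were small. AID-cre is switched on in activated and germinal centre B cells, and whether naive B cells carried the activated allele is not known here. The naive comparison therefore cannot show what activated PIK3CD does in that population. With edgeR 0 of 6 members passed between aPIK3CD and WT in naive B cells (0.0% of all genes), in the dark zone (0.021%) and in the light zone (0.0%), and DESeq2 also called 0 in each. At an unadjusted p below 0.05 the members numbered 0, 1 and 0 of 6, and all genes 319 of 10421, 715 of 9539 and 654 of 9860, so 1 member is near what all genes show. That member was Cyba in the dark zone, where the aPIK3CD libraries (296 to 370 CPM) lay below those of WT (388 to 476; log2 difference -0.31, SE 0.13, edgeR adjusted p = 0.633). Gpx1 was also lower in all 4 dark zone aPIK3CD libraries (-0.26, SE 0.15, edgeR adjusted p = 0.731). The log2 differences of the other members in the 3 populations lay between -0.25 and 0.13, with an SE of at most 0.26. Among these populations the genotype effect differed for 0 of 6 members (edgeR adjusted p = 1.0 for each; 0.0256% of 11736 genes passed).

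Among plasma cells, where 3.2% of all genes passed between genotypes, Cybb (0.03, SE 0.12), Ncf4 (0.07, SE 0.16) and Gpx4 (-0.16, SE 0.13) differed by little, and Cyba (-0.30, SE 0.11) and Gpx1 (-0.32, SE 0.11) were lower in aPIK3CD. With log2 total as a covariate the differences of Cyba and Gpx1 were -0.04 and -0.10. Ncf1 did not pass the filter there.

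The genes around the members came from 6 more lists, whose counts in plasma cells against naive B cells are read against the 49.6% of all genes that passed in WT and the 52.8% in aPIK3CD. In the glutathione list (19 genes, 16 tested) 7 rose and 1 fell in WT plasma cells against naive B cells, with a median log2 difference of 0.63 against -0.088 over all genes. The 8 of 16 that passed are close to the share of all genes. Slc3a2, a subunit of the cystine and large neutral amino acid transporters, rose from 233 to 2346.3 CPM (3.38, SE 0.15, edgeR adjusted p = 4.52e-10). Mgst2, a microsomal glutathione transferase, rose from 40.7 to 155 CPM (1.96, SE 0.23, edgeR adjusted p = 4.84e-06), and Glrx, a glutaredoxin, from 38.0 to 117 (1.67, SE 0.21, edgeR adjusted p = 9.39e-06). Chac1, which degrades glutathione, had 0 counts in naive B cells and 64.4 ± 15.5 CPM in WT plasma cells (SD, n = 4). It was the only gene of the 7 lists that passed between genotypes in plasma cells, at 128 ± 26.4 CPM in aPIK3CD (0.98, SE 0.22, edgeR adjusted p = 0.0378), and it did not pass with log2 total as a covariate (0.71, edgeR adjusted p = 0.839). In naive, dark zone and light zone cells 0 genes of the 7 lists passed between genotypes with edgeR.

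Of the other selenoproteins (18 genes, 14 tested) 7 rose and 2 fell in WT plasma cells against naive B cells, with a median of 1.39. Those with the smallest p were Selenom (2.55 to 315 CPM, 6.90, SE 0.40), Selenos (191 to 1277.8, 2.79, SE 0.17), Selenok (107 to 692, 2.75, SE 0.19) and Selenof (284 to 1156, 2.07, SE 0.15), which all reside in the endoplasmic reticulum. The edgeR adjusted p was 3.27e-09 for Selenom, 5.77e-09 for Selenos, 1.89e-08 for Selenok and 3.25e-08 for Selenof. Genes that make selenoproteins (10 genes, 9 tested) did not rise, with 0 up and 2 down, Sephs2 (-1.01, SE 0.30, edgeR adjusted p = 0.0113) and Eefsec (-1.06, SE 0.33, edgeR adjusted p = 0.0154), and a median of -0.47. In aPIK3CD 7 other selenoproteins rose and 3 fell, while 0 of 9 synthesis genes passed, the smallest p being that of Secisbp2 (edgeR adjusted p = 0.0599).

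Among other genes that remove superoxide and peroxide (21 genes, 18 tested) 9 rose and 3 fell in WT plasma cells against naive B cells, and 11 rose and 3 fell in aPIK3CD, with medians of 0.64 and 0.75. Prdx4, the peroxiredoxin of the endoplasmic reticulum, rose from 63.1 to 1143.3 CPM in WT (4.23, SE 0.18, edgeR adjusted p = 2.97e-10). Txn1, thioredoxin, rose from 88.1 to 413 CPM (2.27, SE 0.16, edgeR adjusted p = 3.61e-08), and Cat, catalase, fell from 312 to 59.5 (-2.35, SE 0.19, edgeR adjusted p = 1.36e-07). Prdx1, a cytosolic peroxiredoxin, rose from 169 to 513 CPM (1.65, SE 0.15, edgeR adjusted p = 5.89e-07). In the list for lipid peroxidation and iron (13 genes, 8 tested), which bears on the substrate of Gpx4, 2 rose and 3 fell in WT with a median of -0.18. In aPIK3CD 10 were tested, 4 rose and 3 fell, and the median was 0.52. Tfrc, the transferrin receptor, fell from 96.4 to 18.8 CPM (-2.33, SE 0.33, edgeR adjusted p = 3.78e-05), and Fth1, ferritin heavy chain, rose from 444 to 1004.8 (1.23, SE 0.15, edgeR adjusted p = 7.79e-06). Gch1, which starts tetrahydrobiopterin synthesis, fell from 89.4 to 11.6 CPM, and Dhodh, a mitochondrial enzyme of pyrimidine synthesis, from 76.2 to 18.7. Of the 22 genes named by the rule in this comparison 11 passed with log2 total as a covariate, and Sephs2 (1.66) and Fth1 (-0.18) changed sign. Eefsec, Txn1, Cat, Prdx1, Gch1 and Dhodh kept their sign and did not pass.

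Within the germinal centre 1 gene of these lists passed between light and dark zone in WT (2.55% of all genes), Selenop, the secreted selenium carrier, at 31.1 CPM in the light and 78.2 in the dark zone (-1.62, SE 0.32, edgeR adjusted p = 0.00739). In aPIK3CD 7 passed (6.04% of all genes), among them Selenop (-1.24, SE 0.29, edgeR adjusted p = 0.0186). Of the 14 glutathione genes tested 2 rose and 1 fell, Slc3a2 (0.63), Gsto1, a glutathione transferase (1.68), and Gclc, which makes the first intermediate of glutathione (-1.22, SE 0.20, edgeR adjusted p = 0.00148). Of the 17 genes for superoxide and peroxide removal 2 rose and 1 fell, the peroxiredoxins Prdx3 and Prdx6 (0.70 each) and Cat (-0.56). With log2 total as a covariate these 7 genes passed as well.

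Over 31 libraries, and as a description since populations and depth are shared, each member was set against 9920 named genes in log2 CPM. Nox1 was most like AU015791 (Pearson r = 0.904), Cyb561 (0.875) and Aldh1a2 (0.85), and Gpx3 most like Frmpd2 (0.964), Prlr (0.957) and Fut1 (0.957). Ncf1 was most like Tlr1 (0.976), Kynu (0.973) and Btg1 (0.966), and Ncf4 like Ephx1 (0.907), Ensa (0.86) and Map2k1 (0.854). Gpx4 was most like Ostc (0.986), Fkbp2 (0.984) and Sec61b (0.981), and Cyba like Dad1 (0.987), Malat1 (0.985) and Cd79a (0.984). For Cybb the nearest were Cd9 (0.927), Itm2c (0.904) and Rpn1 (0.904), and for Gpx1 Cox8a (0.966), Eif3k (0.966) and Park7 (0.962). Between members, r was 0.98 for Cyba and Gpx4 and 0.81 for Nox1 and Gpx3, and Ncf1 stood against Gpx4 at -0.93 and against Ncf4 at 0.37. Nox1 and Gpx3 were both selected as higher in aPIK3CD plasma cells, so their r of 0.81 follows in part from that selection.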

How the data were processed

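Gene expression was measured by RNA sequencing in 32 libraries. The values deposited are raw counts for each gene. STAR 2.4.2a, HTSeq and Picard are named, without a role, per the submitters' processing notes. The genome build and the use of strand in counting are not given in the sources used here. Rows with an identifier but no symbol held 0.173% of counts and were tested but not named. The 2 groups of a comparison entered a fit of their own in edgeR 4.0.16 (R 4.3.3; TMM, filterByExpr with a minimum count of 10 and a minimum total of 15, two-sided quasi-likelihood F test, Benjamini-Hochberg adjusted p below 0.05 over all genes). The SE was taken as log2 fold change, without sign, over the root of F. CPM used TMM factors of all 32 libraries. The scripts were tested on simulated data. The genotype effect was compared among naive, dark zone and light zone cells in 1 fit with 2 degrees of freedom.

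From each pathway list the rule takes up to 4 passing genes with the smallest p, or the gene with the smallest p where none passed. The text gives these mainly for plasma against naive in WT and for light against dark zone, and 1 gene is not reported here. Genes most like a member are the 3 with the highest r in log2 CPM (prior count 2) among those with a mean of at least 10 CPM in 1 group. Members, lists and motifs were chosen with earlier results of these data known. Alternatives were the Wald test of DESeq2 1.42.0, its size factors, no filter, no immunoglobulin or T cell receptor genes, a single fit, the replicate number as a block, a correction for position saturation (at most 2 counts per exonic base), replicate 1 of aPIK3CD counted as WT, leaving out each replicate and, added after seeing the data, log2 total as a covariate without dark zone WT replicate 3. Exon lengths came from GENCODE M21 and matched 53274 genes.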

Additional observations from a re-analysis of the deposited data

Results flagged for a closer look

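In 64 groups of 4 libraries (8 members in 8 groups), 6 had 1 library far from the other 3. Cybb was 621 CPM in naive WT replicate 4, with the others between 512 and 518 CPM. Nox1 was 2.85 CPM in naive WT replicate 3, from 8 counts, and 0.582 CPM in light zone aPIK3CD replicate 4, from 1 count. Gpx3 was 2.72 CPM in naive aPIK3CD replicate 2, from 7 counts, 2.59 CPM in dark zone WT replicate 4, from 4 counts, and 1.44 CPM in light zone aPIK3CD replicate 1, from 2 counts. In the Nox1 and Gpx3 groups the other libraries held at most 1 count. With the other libraries at or near 0, any single library with counts stands apart there, so the rate of about 1 in 20 that chance gives for continuous values applies to the Cybb group and not to these 5.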

How the results depend on the processing

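With log2 total as a covariate, chosen after seeing the data, the members that passed numbered 1 in dark zone against naive in WT, 0 in light zone against naive in WT, 1 in plasma against naive in WT, 3 in plasma against light zone in WT, 1 in light zone against naive in aPIK3CD and 2 in plasma against naive in aPIK3CD. Among values that passed in at least 1 of the fits, signs turned for Ncf4 (0.24 in WT and 0.21 in aPIK3CD) and Gpx1 (-0.27 and -0.38) in plasma against naive, for Gpx1 in plasma against light zone (-0.28 in WT and -0.41 in aPIK3CD, the latter with edgeR adjusted p = 0.0191), and in aPIK3CD for Cyba (-0.44, edgeR adjusted p = 0.00361) and Gpx1 (-0.06) in dark zone against naive and Cyba in light zone against naive (-0.27). Among values that passed in neither fit, signs turned for Cyba in WT (-0.29 in dark zone and -0.15 in light zone against naive), Gpx1 in plasma against dark zone (-0.35 in WT and -0.32 in aPIK3CD) and Ncf4 in plasma against light zone (0.56 and 0.52), and the others that turned lay between -0.08 and 0.03. The cause was not tested, and the totals of naive and plasma libraries do not overlap. Of 103 gene results, 97 to 101 kept their direction and side of the threshold, or moved by less than 1 SD where there was no test, under each of the other settings that keep all replicates, against 69 with the covariate. Light zone against dark zone in aPIK3CD had 2 members with the replicate block (Ncf1 and Ncf4), 0 with aPIK3CD replicate 1 counted as WT, and 0 to 2 without single replicates. Correlations of the deviations of same-numbered replicates ran from -0.204 to 0.336, and no comparison had every pair above 0.1. Column names give the 4 populations of a number within a genotype the same letter, so these libraries may share a mouse. Low correlations cannot exclude this. The main fits did not pair libraries, and the replicate block is the alternative that does. All pairs were positive but not all above 0.1 in several comparisons, such as light zone against dark zone in aPIK3CD (0.072 to 0.336). The Nox1 difference in plasma cells ranged from 2.72 to 4.78 and that of Gpx3 from 1.26 to 1.81 without single replicates. Depth limits Nox1, Gpx3 and plasma cell Ncf1, which rest on 0 to 65 counts per library.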
